A study of Mus musculus with 8 samples.

Results

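Akr1b3, Dnase1 and Cndp2 were followed through the kidney arrays of both Umod mutant lines. The genes were chosen because their transcripts had been low in kidneys of Umod C93F mutants in these same data, so their values in that line are given as a description with no test, and only the Umod A227T line was tested. All array elements carrying 1 of the 3 gene symbols were taken, which gave 4 of 20749 elements: 1 for Akr1b3, 1 for Dnase1 (clone MG-12-206k7) and 2 for Cndp2 (clones MG-12-238a23 and MG-3-27l16). Both lines model uromodulin-associated kidney disease, in which mutant uromodulin is retained in the endoplasmic reticulum of cells of the thick ascending limb of the loop of Henle.

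Akr1b3 encodes aldose reductase, which reduces glucose to sorbitol in the polyol pathway. Sorbitol is an organic osmolyte that cells of the renal medulla accumulate in concentrated urine, and the gene is a known target of the tonicity-responsive factor NFAT5. Dnase1 encodes the secreted endonuclease DNase I, which degrades extracellular DNA and is abundant in mouse kidney tubules. Cndp2 encodes the cytosolic dipeptidase that cleaves, among other dipeptides, the cysteinylglycine left by glutathione breakdown.

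Whole kidney RNA of 4 male heterozygous Umod C93F mutants (age 39 in the labels, no unit given) and of 4 male homozygous Umod A227T mutants (age 19) was hybridised on spotted 2-colour cDNA arrays, with a dye-swapped pair of arrays for each mouse and 16 arrays altogether. The reference on every array was a pool of wild-type males of the same line and labelled age. Both alleles are chemically induced point mutations, present in all cells of the animal, on the C3HeB/FeJ background. The pool stands for 1 control sample per line, so the spread between wild-type mice is not in any p-value, and zygosity, age, pool and hybridisation series coincide with the line and cannot be told apart from it. The dye given to the mutant RNA cannot be read from the labels. The direction, mutant over wild type, was set by the authors' processed ratios and their figure legends and is likely rather than settled; read literally, the scan names would turn every sign given here.

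An element was tested when the foreground of 1 or both channels reached 2 times the local background, on both arrays of at least 3 of the 4 mice, and was called at an adjusted p under 0.10 (limma, Benjamini-Hochberg) with a fold over 1.4. In C93F 3344 elements were tested and 35 called (1.05%), 34 of them lower (1.02%) and 1 higher (0.0299%). In A227T 9295 were tested and 169 called (1.82%), 94 of them lower (1.01%) and 75 higher (0.807%); with each array centred on its median instead of loess, 60 of 203 calls were lower. The C93F arrays were dimmer, with 15.3% to 42.3% of the spots of an array at 2 times the background against 56.7% to 74.0% in A227T. The median SD between mice was 0.09 on the log2 scale in C93F and 0.15 in A227T.

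The promoter of Dnase1 is shown because it was the only 1 of the 3 genes matched in the RefSeq promoter table (GRCm38.p6), which holds 2 start sites for it. The first window, chr16:4036786-4037085 on the plus strand, is 300 bases long and holds the start site at 4037036, from which positions are counted. Capitals mark the matches to the motifs searched on both strands.
Dnase1 promoter: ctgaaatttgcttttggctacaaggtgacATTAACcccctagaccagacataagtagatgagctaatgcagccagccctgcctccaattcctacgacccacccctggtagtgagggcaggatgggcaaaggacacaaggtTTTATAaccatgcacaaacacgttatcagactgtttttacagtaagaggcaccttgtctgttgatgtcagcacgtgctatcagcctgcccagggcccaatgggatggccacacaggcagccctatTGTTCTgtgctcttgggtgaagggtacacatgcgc
GTTAAT, a half-site of the tubular factor HNF1, matched on the minus strand at -221, and 7.1% of the 32851 promoters in the table hold it. TATAAA matched on the minus strand at -110 (13.6% of promoters) and TGTTCT, a half-site of glucocorticoid and androgen receptors, on the plus strand at 15 (19% of promoters). TGGAAA, the core of the NFAT5 site, had no match in this window and is held by 21.4% of promoters. These matches describe letters only, and nothing was measured at this promoter.

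Kidneys of C93F mutants carried less Akr1b3 transcript than the pool. The log2 ratio of mutant over pool was -0.36 in mouse 1, -1.06 in mouse 2, -0.90 in mouse 3 and -0.71 in mouse 4. All 4 mice lay below 0, with mouse 1 nearest to it, and the mean of -0.76 ± 0.30 (SD, n = 4) corresponds to 1.69-fold less transcript. Since whole kidney was measured, fewer cells of a type and less RNA per cell cannot be told apart, here and for the other genes.

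Dnase1 was low to a like extent. Its log2 ratio in C93F was -0.42 in mouse 1, -0.77 in mouse 2, -0.995 in mouse 3 and -0.89 in mouse 4, with a mean of -0.77 ± 0.25 (SD, n = 4), or 1.70-fold less. Again every mouse lay below 0 and mouse 1 was nearest to it. Akr1b3 and Dnase1 were among the 34 elements called lower, which the choice of the genes fixed and from which nothing is read.

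Cndp2 was measured by 2 elements, and both gave smaller differences. The log2 ratio at MG-12-238a23 was -0.28, -0.49, -0.55 and -0.56 in mice 1 to 4 (mean -0.47 ± 0.13, SD, n = 4, 1.38-fold less). At MG-3-27l16 it was -0.49, -0.42, -0.53 and -0.27 (mean -0.43 ± 0.12, SD, n = 4, 1.35-fold less). The elements gave means within 1 SD of each other, but the mouse nearest to 0 was mouse 1 at the first and mouse 4 at the second. At MG-12-238a23 only 2 mice passed the brightness filter, and neither element was among the 34. All 4 elements were below 0 in all 4 mice, as were 19.4% of the elements tested in C93F, a comparison from which nothing is read because the genes were chosen on it.

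**Figure D1:**
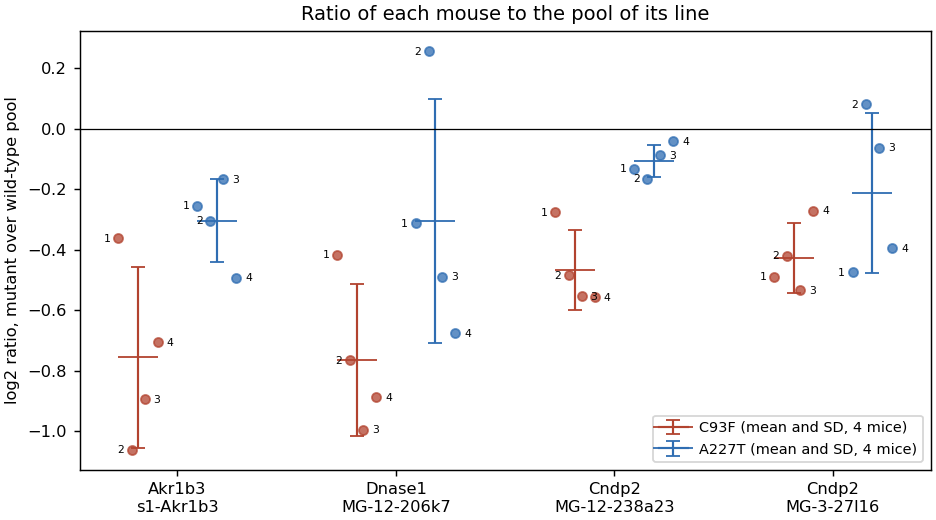
Log2 ratio of each mouse to the wild-type pool of its line (y axis) for the 4 array elements (x axis), with numbered points for mice and bars for the mean and SD of 4 mice. The C93F means lie between -0.77 and -0.43 and the A227T means between -0.31 and -0.11, and the mice of the lines are separated only at Cndp2 MG-12-238a23.

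In the A227T line the values were nearer to 0, and no element of the 3 genes was called. Akr1b3 had log2 ratios of -0.25, -0.30, -0.17 and -0.49 in mice 1 to 4. It was lower in 4 of 4 mice, with a mean of -0.30 ± 0.14 (SD, n = 4, 95% interval -0.48 to -0.13), or 1.24-fold less. Intervals in A227T use the limma standard error, which draws on the variance of all tested elements, and are not adjusted for the number tested. Its adjusted p of 0.0365 (limma) passed the threshold, as it did for 10.8% of the 9295 tested elements in either direction and for 4.57% in the lower direction, but the fold stayed under 1.4. The adjusted p was over 0.10 when A227T mouse 2 (0.104) or mouse 4 (0.160) was left out.

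Dnase1 varied between the A227T mice. The log2 ratio was -0.31 in mouse 1, 0.26 in mouse 2, -0.49 in mouse 3 and -0.68 in mouse 4. Mouse 2 alone lay above 0, and the mean of -0.31 ± 0.40 (SD, n = 4, 95% interval -0.57 to -0.04) did not pass the threshold (adjusted p = 0.167, limma). The interval rests on the limma standard error of 0.12, and an interval from this SD alone would be wider. Without mouse 2 the mean was -0.49 and the adjusted p 0.0203, which passed both thresholds. Without mouse 1, 3 or 4 the adjusted p was 0.296, 0.418 or 0.483 (limma), and Dnase1 was not called.

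Neither Cndp2 element passed the threshold on the adjusted p in A227T. MG-12-238a23 gave -0.13, -0.17, -0.09 and -0.04 in mice 1 to 4, with a mean of -0.11 ± 0.05 (SD, n = 4, 95% interval -0.26 to 0.05, adjusted p = 0.449, limma). MG-3-27l16 gave -0.47, 0.08, -0.06 and -0.40, with a mean of -0.21 ± 0.27 (SD, n = 4, 95% interval -0.42 to -0.004, adjusted p = 0.234, limma). For MG-3-27l16 too, an interval from the SD alone would be wider. The first element was below 0 in all 4 mice with little spread and the second in 3 of 4 mice, with mice 1 and 4 low and mice 2 and 3 near 0. Of the elements tested in A227T, 12.7% were below 0 in all 4 mice, and of the 4 elements of these genes Akr1b3 and Cndp2 MG-12-238a23 were.

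Set side by side, the mean log2 ratio was lower in C93F than in A227T at each element, with -0.76 and -0.30 for Akr1b3, -0.77 and -0.31 for Dnase1, -0.47 and -0.11 for Cndp2 MG-12-238a23, and -0.43 and -0.21 for Cndp2 MG-3-27l16. The difference was not tested, since C93F chose the genes. The ranges of the 4 mice overlapped between the lines for Akr1b3, where C93F mouse 1 lay within the A227T mice, for Dnase1 and for MG-3-27l16. They did not overlap at MG-12-238a23, which had not passed the filter in C93F. Among the 2222 elements tested in both lines, every C93F mouse was below every A227T mouse at 14.7%.

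Akr1b3 was above background in both channels of the C93F arrays. Its median foreground intensity ran from 162 to 600 in the mutant channel and from 308 to 526 in the pool channel, and both channels reached 2 times the background on 8 of 8 arrays. For Dnase1 the mutant channel ran from 117 to 308 and the pool channel from 165 to 608, at 2 times the background on 6 and 8 arrays. The mutant channel of Cndp2 MG-12-238a23, at 106 to 317, reached 2 times the background on 1 of 8 arrays and its pool channel, at 139 to 321, on 6. For MG-3-27l16 these numbers were 5 and 8 arrays, with 148 to 216 in the mutant and 186 to 328 in the pool channel. The ratio at MG-12-238a23 in C93F therefore rests on mutant signals close to background, and no spot of these elements held saturated pixels.

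The same spots were brighter in A227T for Dnase1, at 407 to 2703 in the mutant and 693 to 3163 in the pool channel, and for Cndp2 MG-12-238a23, at 460 to 8137 and 521 to 6935. Akr1b3 was dim here too, at 156 to 383 and 180 to 453, and its mutant channel reached 2 times the background on 7 of 8 arrays. MG-3-27l16 ran from 247 to 743 and from 235 to 722. Of these A227T elements, all but Akr1b3 reached 2 times the background in both channels of all 8 arrays. Intensities of the lines come from separate hybridisation series and are not levels that can be compared between lines.

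**Figure D2:**
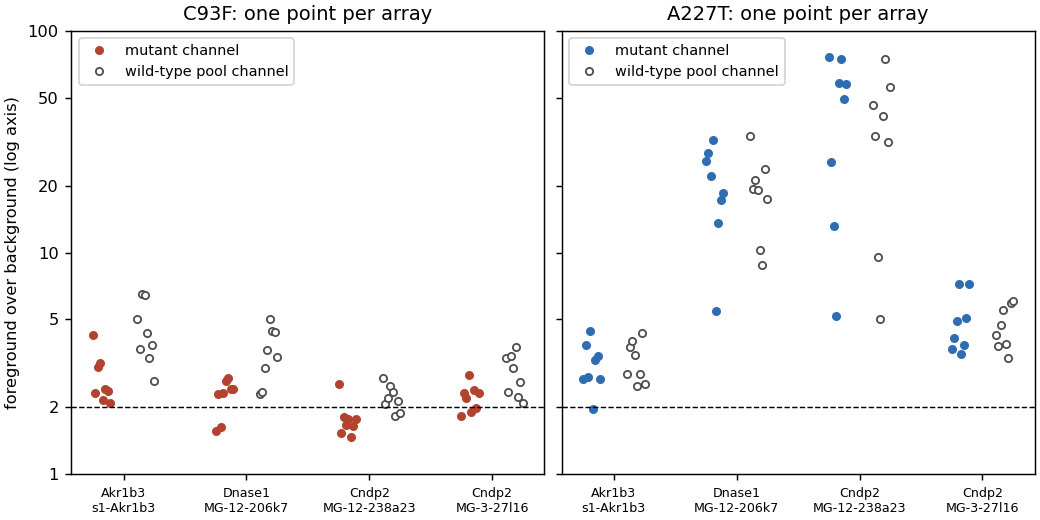
Median foreground over local background of each spot (y axis, log axis) in the mutant channel (filled) and in the wild-type pool channel (open), 1 point per array, for C93F (left) and A227T (right), with a dashed line at 2. In C93F the mutant channel of Cndp2 MG-12-238a23 passes 2 on 1 of 8 arrays, and in A227T Dnase1 and this Cndp2 element stand well above it.

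The 2 arrays of a mouse carry exchanged dyes and give separate readings. For Akr1b3 in C93F the mean was -0.76 with the mutant likely in Cy5 and -0.75 with it likely in Cy3. Of the 8 arrays 7 lay between -1.203 and -0.587, and the array of mouse 1 with the mutant likely in Cy5 lay at 0.06, with a mutant foreground of 600. The other array of that mouse gave -0.79, so mouse 1 is near 0 for Akr1b3 through 1 of its arrays.

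Dnase1 was below 0 on all 8 C93F arrays, with means of -0.92 and -0.62 in the Cy5 and Cy3 orientation. The gap of 0.30 was close to the median gap of 0.32 over all tested elements. On the array of mouse 1 with the mutant likely in Cy5 the mean over the pixels of the spot (528 in the mutant and 2246 in the pool channel) was far above the median over the pixels (207 and 248). Taken from pixel means, the log2 ratio of mouse 1 was -1.16, that of the other mice -0.84, -1.02 and -0.95, and the mean -0.99.

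Both Cndp2 elements depended on the orientation, in opposite directions. MG-12-238a23 in C93F averaged -0.21 with the mutant likely in Cy5 and -0.73 with it likely in Cy3, a gap larger than that of 76.4% of the tested elements. MG-3-27l16 averaged -0.77 and -0.09, a gap of 0.68 that exceeded that of 90.3% of them. It was below 0 on all 8 arrays, yet the Cy3 arrays of mice 3 and 4 lay at -0.02 and -0.01. A term for the dye passed an adjusted p of 0.10 at 67.9% of the tested elements in C93F and at 26.3% in A227T. MG-12-238a23 was not among those tested in C93F. A dye effect that is additive on the log2 scale and equal in both orientations cancels in the mean of the 2. Whether it has this form at these dim spots was not tested.

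In A227T the Akr1b3 means by orientation were -0.21 and -0.40, and those of MG-3-27l16 -0.14 and -0.29. Dnase1 averaged -0.61 with the mutant likely in Cy5 and -0.004 with it likely in Cy3, a gap larger than that of 90.5% of the tested elements, with an adjusted p of 0.0925 for the dye term (limma). For MG-12-238a23 the means were 0.06 and -0.28 (adjusted p = 0.0853 for the dye term, limma), so its sign in A227T turned with the orientation.

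**Figure D3:**
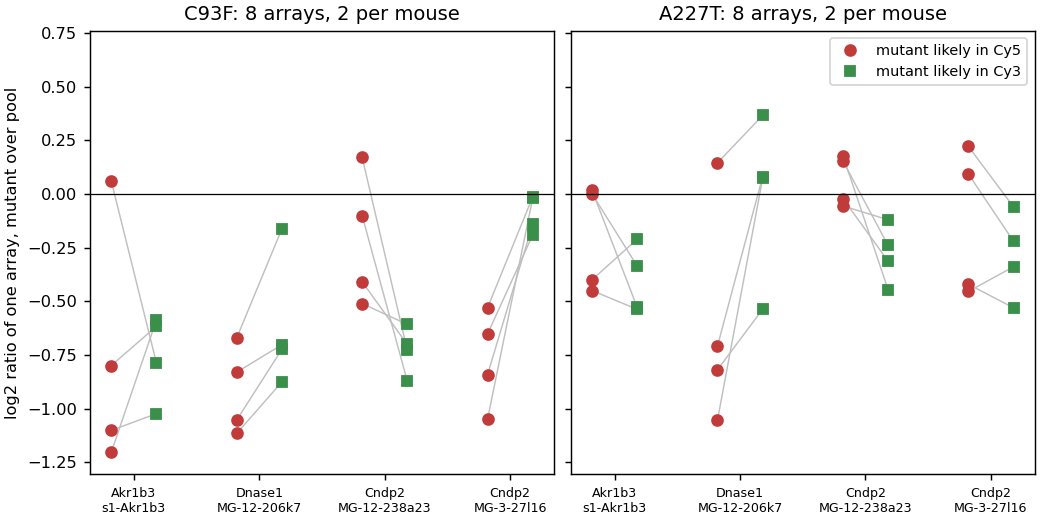
Log2 ratio of single arrays (y axis) for the 4 elements (x axis) in C93F (left) and A227T (right), with circles for arrays with the mutant likely in Cy5, squares for Cy3 and grey lines joining the 2 arrays of a mouse. Akr1b3 in C93F holds its level in both orientations (-0.76 and -0.75), while Cndp2 MG-3-27l16 moves from -0.77 to -0.09.

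The authors' processed ratios gave lower values in C93F, with means over the 4 mice of -0.95 for Akr1b3, -1.04 for Dnase1, -0.77 for MG-12-238a23 and -0.55 for MG-3-27l16. Across elements, the scans of C93F mouse 1 matched the authors' column of mouse 2 (r = 0.870) and those of mouse 2 their column of mouse 1 (r = 0.871), while mice 3 and 4 matched their own (r = 0.926 and 0.892). The mouse nearest to 0 in the authors' Akr1b3 column is accordingly the one they number 2, at -0.61. In A227T their means were -0.42 for Akr1b3 (3 mice, since mouse 3 has no value), -0.24 for Dnase1, -0.006 for MG-12-238a23 and -0.21 for MG-3-27l16.

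The identity of the Akr1b3 element rests on its position. At block 40, column 19, row 1 the A227T scans name it s1-Akr1b3 and the C93F scans IMAGp966A02103Q, and the clone names differ in this way at 217 of 20794 positions. No gene is given for this one by the platform annotation, and the study calls the gene Akr1b1. A spotted cDNA can also bind transcripts of close relatives, so these were looked up. Akr1b8, another aldo-keto reductase of the aldose reductase group, was at -0.03 ± 0.11 (SD, n = 4) in C93F, where it did not pass the filter, and at -0.23 ± 0.28 (SD, n = 4, adjusted p = 0.220, limma) in A227T. Dnase1l3, a secreted relative of Dnase1, was at 0.08 ± 0.08 in C93F and -0.12 ± 0.09 in A227T (SD, n = 4) and was tested in neither line.

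No pathway neighbour of the 3 genes was called in either line, while some passed the adjusted p alone, which 24% of the tested elements did in C93F (14.7% in the lower direction). Of the aldo-keto reductases on the array, 4 of 7 were tested in C93F and Akr1b3, chosen on this line, was the 1 called lower. The median log2 ratio of the 4 was -0.15 beside 0.02 for all tested elements. It includes Akr1b3 itself, so nothing is read from it. Akr1a1, the aldehyde reductase, had a C93F ratio of -0.30 ± 0.12 (SD, n = 4) and passed the adjusted p alone, while Akr1c21 was at 0.01 and Akr1c18 at 0.03. Of the genes of the polyol pathway and of organic osmolytes, 4 of 8 were tested and again Akr1b3 was the 1 called. Their median of -0.19 also includes Akr1b3. Miox, which opens the breakdown of myo-inositol, at -0.25, and Khk, encoding ketohexokinase, at -0.13, passed the adjusted p alone. Aqp2, the water channel of the collecting duct, which is counted in this list, was at 0.03.

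In A227T all 7 aldo-keto reductases were tested and none was called (median -0.03 beside 0.006 for all tested elements). At an adjusted p under 0.10 alone there were 2, Akr1b3 at -0.30 and Akr1c21 at 0.34. Of the polyol and osmolyte genes 7 of 8 were tested and 0 called, with 2 at an adjusted p under 0.10 alone, Akr1b3 and Aqp2, which was at 0.48 ± 0.23 (SD, n = 4, adjusted p = 0.00733, limma) and passed the threshold on p but fell short of the fold. The median of this list was -0.09.

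Among genes of DNases, other nucleases and related proteins, 3 of 9 on the array were tested in C93F and Dnase1 was the 1 called. The ribonuclease gene Rnaset2b was at -0.006 and the exonuclease gene Trex2 at 0.06. In A227T 5 of 9 were tested and 0 called, and 1, Rnaset2b, had an adjusted p under 0.10 (0.0313, limma), at 0.31. Among peptidases and peptide transporters of the tubule, 5 of 15 were tested in C93F and 0 called. Cndp2 was the lowest of them, followed by Mep1b, a subunit of the brush border protease meprin, at -0.20 ± 0.04 (SD, n = 4), which passed the adjusted p alone, while Ace was at -0.02, Acy1 at 0.004 and Dpep1, the brush border dipeptidase, at 0.09. In A227T 9 of 15 were tested, 0 were called and 0 had an adjusted p under 0.10, with ratios from -0.13 to 0.16.

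Markers of the first and second proximal tubule segments, S1 and S2, were mostly below the pool in the same C93F kidneys, with 8 of 9 below 0. All 9 of these markers on the array were tested, 5 were called lower and 0 higher, beside 1.02% of tested elements called lower, and their median log2 ratio was -0.50. The sodium-phosphate cotransporter Slc34a1 was at -0.64, the neutral amino acid transporter Slc6a19 at -0.59, the organic anion transporter Slc22a6 at -0.53 and the dicarboxylate transporter Slc13a3 at -0.52. The sulfate transporter Slc13a1 lay above 0, at 0.18, and passed the adjusted p alone. The mean over the list ran from -0.44 to -0.32 between the 4 C93F mice and from -0.14 to 0.02 between the A227T mice, where 8 were tested and 0 called (median -0.12). The study names Slc13a3 and Slc13a1 from these arrays, so neither is independent evidence for the list. The list itself was chosen with earlier results of these data known. The part of these markers in the ratios of Akr1b3, Dnase1 and Cndp2 was not tested.

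Markers of the S3 segment, the thick ascending limb and the collecting duct had 3 tested genes each in C93F and 0 called. The adjusted p alone was passed by 1, 2 and 2 of them, beside 24% of all tested elements. The mean over the thick ascending limb list ran from -0.22 to -0.12 between the mice, with Umod at -0.32, Cldn10 at -0.23 and Ppp1r1a at 0.05. In A227T 2 of 6 tested S3 markers were called lower, beside 1.01% of all tested elements, Fgf1 at -0.57 and the organic anion transporter Slc22a7 at -0.50. Of the other S3 markers, Atp11a was at -0.24, Cyp7b1 at -0.05, Slc5a1 at 0.004 and Slc22a13 at 0.12. In the same line 0 of 5 thick ascending limb and 0 of 7 collecting duct markers were called. The adjusted p alone was passed by 1 and 2 of them, beside 10.8% of all tested elements. Those of the collecting duct were Aqp2 at 0.48 and Hsd11b2 at 0.41, while Scnn1a was at -0.14. The mean over the collecting duct list ran from 0.13 to 0.19 between the mice. Leukocyte markers were 0 of 1 called in C93F and 0 of 4 in A227T. In A227T 3 of the 4 passed the adjusted p alone, beside 10.8% of all tested elements. These were Lyz2 at 0.35, Cd74 at 0.32 and Itgam at 0.24, with Coro1a at -0.13. Adipocyte markers were 0 of 2 called in C93F, while in A227T 3 of 4 were called higher, beside 0.807% of all tested elements, Fabp4 at 0.82, Ucp1 at 0.54 and Car3 at 0.49. The fourth, Pparg, was at -0.46 and passed the adjusted p alone (0.00992, limma), and with the mean over the elements of a gene 2 of the 4 were called higher. Of red cell markers 0 of 2 were called in C93F and 1 of 2 was lower in A227T, Hba-a1 at -0.80. In C93F Hba-a1, read from another element, was at -0.34 and passed the adjusted p alone, while Alas2 was at -0.003. The part of these markers in the A227T ratios was not tested. The study names Fgf1, Fabp4, Ucp1 and Hba-a1 from these same arrays, so none of them is independent evidence for its list.

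Among the elements of the 3 genes themselves, the 2 Cndp2 elements lay closest together over all 8 mice. The root mean square difference of their log2 ratios was 0.23 (0.18 in C93F and 0.28 in A227T). In A227T alone, Akr1b3 was nearer to MG-3-27l16 (0.23) and to MG-12-238a23 (0.25) than the Cndp2 elements were to each other. MG-12-238a23 had not passed the filter in C93F. Akr1b3 and Dnase1 differed from each other by 0.27 over all 8 mice and by 0.18 in C93F. Dnase1 and Cndp2 MG-3-27l16 differed by 0.42 in C93F.

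The named elements nearest to each gene over the 8 mice were ranked by the same measure among 1509 candidates tested in both lines. Macrod1, an ADP-ribose hydrolase gene, was nearest both to Akr1b3 (0.20) and to Dnase1 (0.21), with mean log2 ratios of -0.80 in C93F and -0.19 in A227T. For Akr1b3 it was followed by Mt2, a metallothionein gene (0.23), and Phyh, encoding the peroxisomal phytanoyl-CoA hydroxylase (0.24). For Dnase1 the next were Inmt, a methyltransferase gene (0.22), and Hsd17b11 (0.22). Cndp2 MG-3-27l16 was nearest to Slc45a3 (0.15), to Dab2, an adaptor of endocytosis (0.17), and to the cytochrome b5 gene Cyb5a (0.17). MG-12-238a23 could be ranked only over the 4 A227T mice, among 6326 candidates, where Usp7 (0.01), Card10 (0.02) and Thap12 (0.02) were nearest. All arrays of a line share 1 pool, so elements also share the pool's own deviation. The measure compares the ratios themselves, so over the 8 mice it also reflects the low C93F values on which the genes were chosen. Nothing is read from these ranks.

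**Figure D4:**
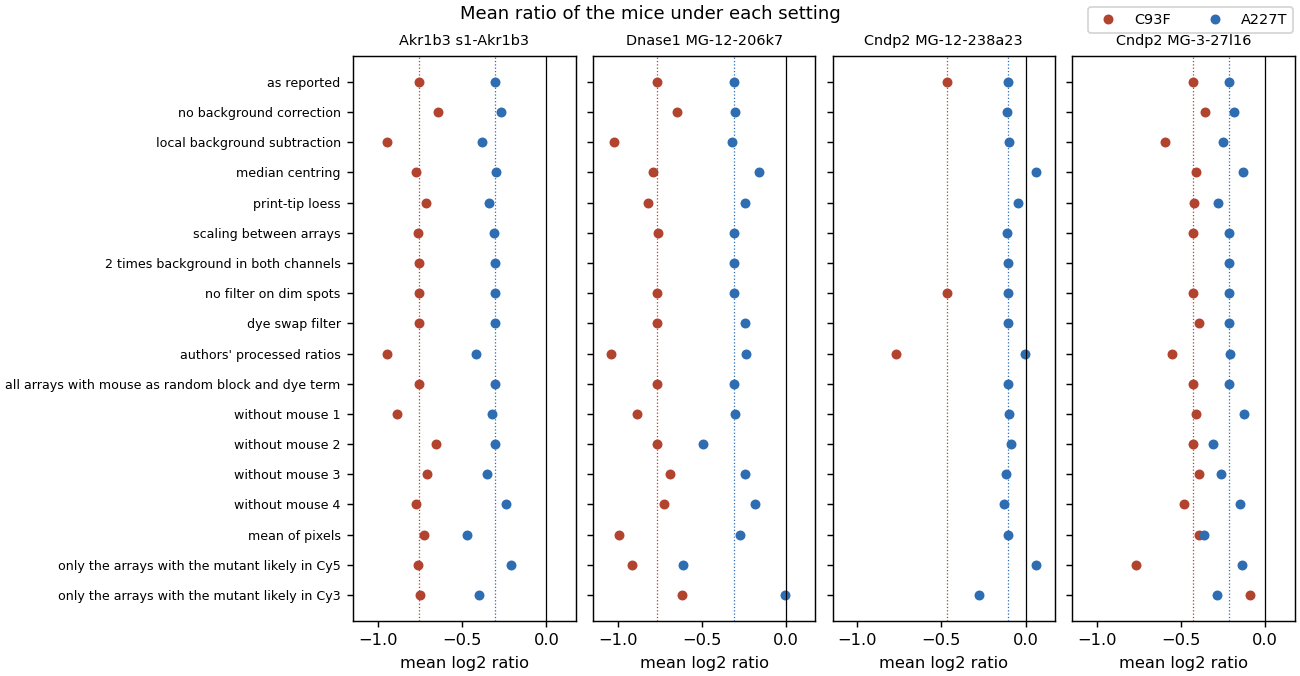
Mean log2 ratio of the mice (x axis) for each element under the reported processing and each alternative (y axis), C93F in red and A227T in blue, with dotted lines at the reported means; points are missing where the element was not tested. Akr1b3 and Dnase1 stay below 0 in both lines throughout, with Dnase1 in A227T at -0.004 on Cy3 arrays, while Cndp2 MG-12-238a23 in A227T crosses 0 under 2 settings.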

How the data were processed

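Kidney RNA of 4 Umod C93F and 4 Umod A227T males was measured on 16 arrays, 2 per mouse, against the wild-type pool of each line. Per spot and channel, the authors deposited foreground and local background intensity as the scanner software gave it, not normalized, together with scanner flags, another kind of value in the deposited scans (negative where no spot was found). They also deposited processed log2 ratios, with scale, centring and direction unstated; set against the scans these were on a log2 scale, with column medians from 0.007 to 0.047. In the study's methods, filters removed elements near background or discordant between dye swaps, and calls came from SAM. With the deposited ratios 17960 elements could be tested in C93F and 4904 in A227T. Whether those filters had been applied to the deposited ratios is unstated. The number of arrays limits the precision.

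Ratios were computed from median foreground intensities with R 4.3.3 and limma 3.58.1: normexp (offset 50), global loess per array (spots not found at weight 0), signs turned one way, spots of one clone averaged, then the 2 arrays of a mouse averaged. Each line was fitted against 0 over all tested elements with lmFit and eBayes, and p-values were adjusted by Benjamini-Hochberg over that line. A gene of a list was represented by its brightest tested element. The steps were tested on simulated data. Gene names came from the platform annotation, which covers 12771 positions, except that of the Akr1b3 element, taken from its clone name in the A227T scans and the study's tables. No column was left unassigned.

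The genes and lists were chosen with earlier results of these data known. From each list the called genes, at most 4 per line by size, and close relatives of the 3 genes were named, as were the 3 named elements nearest to each element by root mean square difference. Other list genes were picked for naming after seeing their values. Alternatives covered background correction, normalization, filters, the authors' ratios, a fit of all arrays with the mouse as a random block and a dye term, and the omission of each mouse.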

Additional observations from a re-analysis of the deposited data

How the results depend on the processing

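In C93F, leaving out 1 mouse at a time gave means of -0.89 to -0.65 for Akr1b3, -0.88 to -0.69 for Dnase1 and -0.48 to -0.39 for Cndp2 MG-3-27l16, and 35 to 39 called elements. In A227T it gave -0.35 to -0.24 (adjusted p 0.0556 to 0.160, limma), -0.49 to -0.18 (0.0203 to 0.483), -0.13 to -0.09 for MG-12-238a23 and -0.31 to -0.13 for MG-3-27l16, and 161 to 201 calls. With local background subtraction, calls were 74 in C93F and 295 in A227T, and in C93F Dnase1 moved to -1.02 and MG-3-27l16 to -0.59. With no background correction 23 elements were called in C93F. With the authors' processed ratios 9 of 17960 tested elements were called in C93F, against 35 of 3344 as reported. Akr1b3, at -0.95, and Dnase1, at -1.04, were then not called, and MG-12-238a23 was at -0.77 and MG-3-27l16 at -0.55. The causes were not tested. In A227T, MG-12-238a23 turned to 0.0601 with median centring (adjusted p = 0.662, limma) and to 0.0646 with only the arrays with the mutant likely in Cy5 (adjusted p = 0.739). On those arrays Dnase1 in A227T was at -0.61 (adjusted p = 0.0445) and MG-3-27l16 in C93F at -0.77, against -0.0904 with only the Cy3 arrays. Both single orientations and the mean of pixels were chosen after seeing the data. Akr1b3 in A227T was never called. Over 13 other settings its mean ran from -0.47 to -0.21 and its adjusted p from 0.00189 to 0.297, under 0.10 in 11. MG-3-27l16 in A227T was never called either. Over 13 other settings its mean ran from -0.37 to -0.13 and its adjusted p (limma) from 0.0243 to 0.545, under 0.10 in 3. The share of lower calls in A227T, 55.6%, was 29.6% with median centring and 43.3% with the authors' ratios. The other 136 values kept their direction and their side of the threshold or lay within the replicate spread, or within 1.5 times the count reported. With 2 times the background required in both channels, only Akr1b3 could be tested in C93F. No paired analysis was possible because each mouse was set against the pool of its own line and the lines were compared by their values with no test. Dim spots limit the C93F ratios most at MG-12-238a23.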
